A study of Mus musculus with 24 samples.

Results

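Untreated ID8 cells carrying an empty CRISPR vector (EV) were compared with untreated, untransfected ID8 cells (WT) across 11698 expressed genes of the 24614 in the table. The comparison took the 3 EV and 3 WT libraries labelled as untreated, 6 of 24 libraries in the series, and no measured value chose them. ID8 is an epithelial ovarian cancer line of the mouse, and per the labels all cells of the series carry knockouts of both Trp53 and Brca2, so neither control is wild type at these genes. Both lines were Ifnar1 wild type and received no interferon, and 24 h earlier 50000 cells had been seeded in each well, in culture medium holding 4% heat-inactivated serum. The same lines after 3 h with 10000 IU/ml of recombinant mouse interferon beta (IFN beta), 3 libraries each, gave a comparison of EV with WT in libraries that the untreated comparison did not use. Untreated cells of 2 Ifnar1 knockout clones, 1CF10 and 2CD7, are given beside some genes as levels. RNA was measured as unique molecular identifiers (UMIs), which count transcript molecules read near their poly(A) tails.

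An empty vector line is the usual control for a CRISPR knockout, since it has passed through transfection and outgrowth without a targeted gene. Sources used here do not say whether EV is a population or a single clone, and WT and EV are each 1 line. Libraries of a group were technical replicates, 3 per group, all handled on 1 date. Every p-value therefore measures technical spread, and a difference between EV and WT is one between these 2 lines as cultured. ID8 cells derive from the ovarian surface epithelium, a mesothelium-like layer marked by keratins, Wt1, Msln and Upk3b. The transcription factor AP-1 is formed by Fos and Jun family proteins, acts downstream of growth factor receptors such as the EGF receptor, and drives secreted ligands and matrix proteases. YAP and its partner TEAD respond to cell spreading and density and drive genes such as Ccn1, Ccn2 and Ankrd1.

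The EV libraries held 2458552 to 2490876 UMIs and the WT libraries 1972192 to 2908144, with 1.42% to 1.74% of UMIs from mitochondrial genes. The root mean square log2 difference between libraries was taken over the 7729 tested genes with an average log2 CPM above 4. It was 0.240 to 0.263 within EV, 0.244 to 0.270 within WT and 0.358 to 0.388 between the lines. Interferon-inducible genes set 2 libraries apart, WT replicate 2 and EV replicate 3: Isg15, a ubiquitin-like antiviral protein, stood at 12.0, 10.3 and 32.3 CPM in EV and 7.20, 33.1 and 8.97 CPM in WT. The summed level of 47 tested antiviral genes was 1096, 1151 and 1442 CPM in EV and 815, 1397 and 926 CPM in WT. Levels are in CPM, the usual scaling of UMIs to the library's total, with that total corrected for composition by TMM.

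At a Benjamini-Hochberg adjusted p below 0.05 in edgeR's quasi-likelihood test, 1649 genes (14.1% of those tested) differed between untreated EV and WT. The split was near even, with 814 genes (6.96%) higher and 835 (7.14%) lower in EV. Most were small. The median absolute log2 difference of the called genes was 0.53, and 99 genes (0.846%) were at least 2-fold higher and 194 (1.66%) at least 2-fold lower. At 4-fold, 20 genes were higher and 57 lower. In 1568 of the 1649 called genes the libraries of the lines did not overlap, where over all tested genes all EV libraries lay above all WT libraries in 1655 (14.1%) and below them in 1799 (15.4%). Without WT replicate 2 and EV replicate 3 together, an alternative added after the data were seen, 596 genes were higher and 555 lower. Leaving out WT replicate 3 alone gave 552 and 551. The median log2 difference over all tested genes was -0.01.

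**Figure D1:**
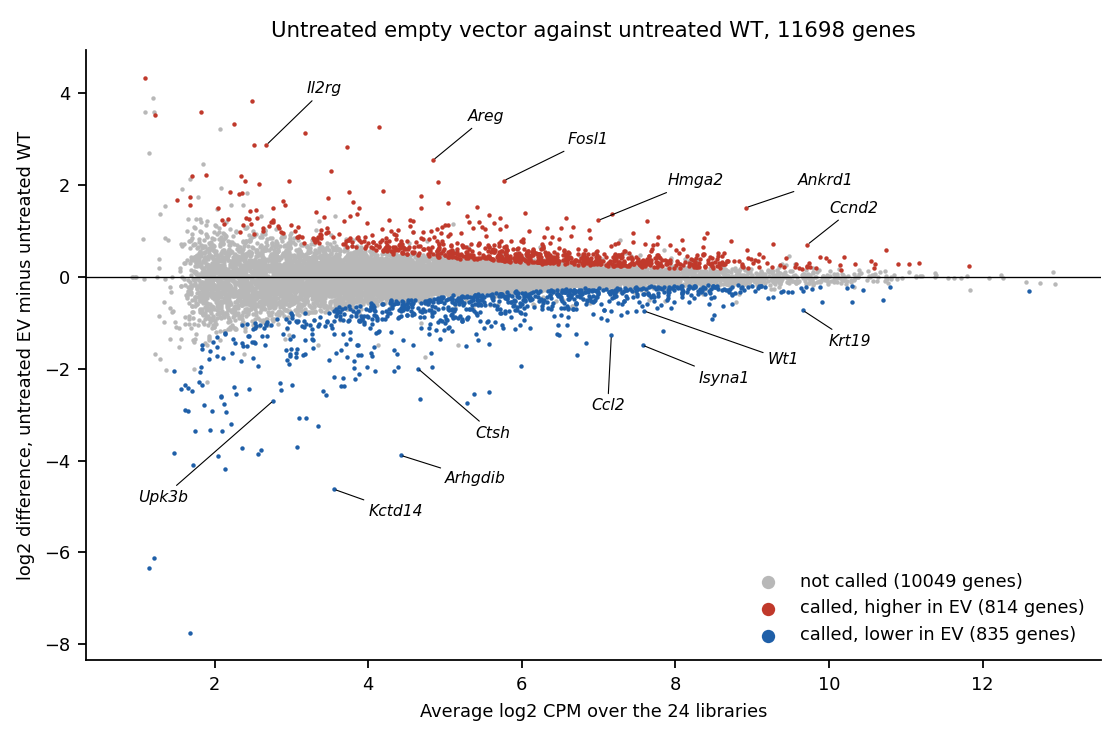
Each point is a gene, with its average log2 CPM over the 24 libraries on the horizontal axis and its fitted log2 difference, untreated EV minus untreated WT, on the vertical axis. Red marks the 814 genes called higher in EV, blue the 835 called lower and grey the rest, with Ccnd2 (0.70) and Krt19 (-0.73) among the called genes of high abundance and Kctd14 (-4.63) among the lowest values.

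The receptor that the series targets was not called between the 2 control lines. Ifnar1, a chain of the type I interferon receptor, was at 11.2, 11.5 and 13.1 CPM in EV and 9.004, 16.8 and 8.97 CPM in WT. The groups overlapped, and the log2 difference was 0.09 ± 0.25 (edgeR adjusted p = 0.873). Ifnar2, the other receptor chain, had a log2 difference of -0.37 ± 0.22 (edgeR adjusted p = 0.295). Trp53 transcripts were counted in both lines, at 9.59, 17.7 and 15.1 CPM in EV and 14.4, 15.3 and 14.1 CPM in WT, with a log2 difference of -0.05 ± 0.22 (edgeR adjusted p = 0.93). Brca2 transcripts stood at 34.8, 27.1 and 31.5 CPM in EV and 17.1, 20.9 and 25.2 CPM in WT, so all 3 EV libraries lay above all 3 WT libraries, at a log2 difference of 0.54 ± 0.17 (edgeR adjusted p = 0.0181). The Brca2 call was lost without EV replicate 1, EV replicate 3 or WT replicate 1, and in DESeq2. The sources used here do not name the deleted parts of Trp53 and Brca2, and reads near the poly(A) tail need not cover them, so these counts do not check the knockouts.

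Immediate early genes, which code for transcription factors and feedback phosphatases switched on within minutes of growth factor signalling, had the highest median of the lists with at least 10 tested members. Of 20 tested members 10 were higher in EV and 0 lower, with a median log2 difference of 0.47 against -0.01 for all tested genes. Every list count is to be read beside the 6.96% of all tested genes called higher and the 7.14% called lower. Fosl1, the Fos family partner in AP-1, was at 87.5, 75.7 and 80.6 CPM in EV and 20.3, 19.9 and 17.2 CPM in WT. The groups were far apart, at a log2 difference of 2.10 ± 0.14 (edgeR adjusted p = 6.71e-18). Jun, its dimer partner, was at 146, 147 and 129.7 CPM in EV and 86.9, 69.8 and 77.2 CPM in WT and again did not overlap, with 0.85 ± 0.11 (edgeR adjusted p = 9.14e-08). The proto-oncogene Myc stood at 128, 115 and 119 CPM in EV and 62.6, 55.0 and 52.1 CPM in WT, a log2 difference of 1.10 ± 0.12 (edgeR adjusted p = 1.55e-10). Atf3, a stress-inducible factor of the same family as Jun, was higher by 1.22 ± 0.27 (edgeR adjusted p = 0.000714). Junb, Ier2, Ier3, Klf6, Dusp5 and Maff were the other members called, at log2 differences of 0.47, 0.48, 0.70, 0.58, 0.79 and 0.47, each named after its value was seen. Egr1, Jund and Zfp36 were not called, at 0.28, -0.06 and -0.15. The count of higher members was 8 to 11 with a single library left out and 7 without WT replicate 2 and EV replicate 3. Without EV replicate 3 alone, 1 member was called lower.

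Of the ligands of the EGF receptor, 3 were higher in EV, while the receptor itself was not called. Areg, which codes for amphiregulin, was at 50.8, 47.3 and 41.3 CPM in EV and 12.6, 4.59 and 6.55 CPM in WT, with no overlap and a log2 difference of 2.55 ± 0.24 (edgeR adjusted p = 1.95e-10). Ereg, for epiregulin, was at 46.8, 35.0 and 37.6 CPM in EV and 8.55, 17.3 and 16.2 CPM in WT, a difference of 1.495 ± 0.22 (edgeR adjusted p = 5e-06). Hbegf, for heparin-binding EGF-like growth factor, was at 77.9, 82.7 and 86.7 CPM in EV and 37.4, 26.0 and 31.0 CPM in WT, a difference of 1.38 ± 0.13 (edgeR adjusted p = 2.36e-12). All 3 ligands kept the groups apart. Tgfa, another ligand, had a log2 difference of 0.06 ± 0.22 (edgeR adjusted p = 0.899). The receptor gene Egfr was at 37.6, 33.3 and 33.1 CPM in EV and 27.0, 35.7 and 34.1 CPM in WT, with overlap and 0.10 ± 0.16 (edgeR adjusted p = 0.741). The lowest value of the list was that of Fgfr1, a receptor for fibroblast growth factors, at 4.00, 2.88 and 1.64 CPM in EV and 16.7, 13.2 and 15.2 CPM in WT and -2.39 ± 0.31 (edgeR adjusted p = 1.6e-08). Over the list of 24 tested receptor tyrosine kinase genes, ligands and feedback genes, 6 were higher and 2 lower, with a median of 0.08.

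Genes that YAP and TEAD are known to drive were higher in 6 of 19 tested members and lower in 0, with a median log2 difference of 0.26. Ankrd1, an ankyrin-repeat protein, was at 523, 667 and 567 CPM in EV and 216, 201 and 200.4 CPM in WT. EV libraries lay far above WT libraries, at 1.51 ± 0.12 (edgeR adjusted p = 3.9e-08). Ccn2, a matricellular growth factor, was at 85.1, 111 and 106 CPM in EV and 50.9, 36.7 and 36.9 CPM in WT, a difference of 1.28 ± 0.17 (edgeR adjusted p = 8.11e-06). Ccn1, its relative, was at 22.4, 25.5 and 21.7 CPM in EV and 11.3, 12.7 and 10.3 CPM in WT, a difference of 1.03 ± 0.20 (edgeR adjusted p = 0.000121). Amotl1, a scaffold that binds YAP, was at 12.0, 11.9 and 14.7 CPM in EV and 3.602, 4.08 and 6.21 CPM in WT, a difference of 1.42 ± 0.29 (edgeR adjusted p = 0.000163). Axl and F3 were also called, at 0.30 and 0.60. The other 13 members were not called, among them Amotl2 at 0.26 ± 0.10, Lats2 at -0.11 ± 0.16 and Tead1 at -0.10 ± 0.14. Leaving out any 1 library left 5 or 6 members called. With all libraries kept, 0 members were lower at an unadjusted p below 0.05 in edgeR and 0 in DESeq2 or limma-voom, as in the immediate early list.

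Secreted proteases of the matrix, their activators and their inhibitors showed the same direction in 9 of 16 tested members, against 2 lower, with a median of 0.35. Plau, the urokinase plasminogen activator, was at 9.99, 5.76 and 10.2 CPM in EV and 3.602, 3.06 and 2.76 CPM in WT, a difference of 1.47 ± 0.36 (edgeR adjusted p = 0.00234), and Plaur, its receptor, at 139, 146 and 142 CPM in EV and 81.9, 79.0 and 71.0 CPM in WT, a difference of 0.89 ± 0.10 (edgeR adjusted p = 2.25e-10). For enzyme and receptor alike, all EV libraries lay above all WT libraries. The stromelysin gene Mmp10 was at 119.9, 117 and 96.1 CPM in EV and 66.6, 73.9 and 50.7 CPM in WT, a difference of 0.82 ± 0.12 (edgeR adjusted p = 3.32e-06). The collagenase gene Mmp13 was at 39.97, 33.7 and 42.5 CPM in EV and 18.01, 21.9 and 14.5 CPM in WT, a difference of 1.13 ± 0.18 (edgeR adjusted p = 1.57e-06). Plaur, Mmp10 and Mmp13 were chosen for their promoters after their values were seen. Timp3, a metalloproteinase inhibitor, differed by 1.21 ± 0.26 (edgeR adjusted p = 0.000508). Mmp11 was lower, at -0.69 ± 0.14 (edgeR adjusted p = 0.000171), as was Adamts9 at -1.45 ± 0.45 (edgeR adjusted p = 0.0185), whose call was lost without EV replicate 3, WT replicate 1 or WT replicate 3 and in DESeq2. The count of higher members was 8 or 9 with any 1 library left out.

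Promoters of some genes of these 2 lists are shown because their letters can be set beside the RNA levels of these genes. Activity and binding of AP-1, YAP and TEAD were not measured. The genes shown were chosen after their values were seen, and each holds a motif. Sequences are RefSeq's 250 bases before the gene start on GRCm38.p6, 5′ to 3′ in the direction of the gene, and capitals mark the motif on either strand. For AP-1 the letters searched were TGANTCA, which read the same on both strands. These were found in Mmp10 (chr9:7502092-7502341, plus strand), Mmp13 (chr9:7272264-7272513, plus strand) and Plaur (chr7:24462233-24462482, plus strand), with the motif's first base 63, 35 and 69 bases before the start.
Mmp10: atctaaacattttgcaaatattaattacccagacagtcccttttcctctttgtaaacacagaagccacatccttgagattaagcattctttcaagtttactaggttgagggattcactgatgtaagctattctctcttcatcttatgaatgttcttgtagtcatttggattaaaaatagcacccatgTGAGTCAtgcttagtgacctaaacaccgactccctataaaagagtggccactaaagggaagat
Mmp13: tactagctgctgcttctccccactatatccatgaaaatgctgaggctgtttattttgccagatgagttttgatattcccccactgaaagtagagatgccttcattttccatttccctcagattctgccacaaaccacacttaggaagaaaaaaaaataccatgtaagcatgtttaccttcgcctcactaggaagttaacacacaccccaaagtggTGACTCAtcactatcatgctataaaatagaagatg
Plaur: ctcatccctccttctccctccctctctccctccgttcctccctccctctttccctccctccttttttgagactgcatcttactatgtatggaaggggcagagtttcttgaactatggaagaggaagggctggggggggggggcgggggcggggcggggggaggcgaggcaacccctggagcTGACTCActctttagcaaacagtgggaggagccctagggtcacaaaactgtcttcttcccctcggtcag
For TEAD the letters searched were GGAATG, or CATTCC on the other strand, and the 2 motifs do not overlap each other here. Ankrd1 (chr19:36119845-36120094, minus strand) held the motif 210 and 123 bases before the start, and Ccn1 (chr3:145649986-145650235, minus strand) held it on the other strand 103 bases before the start.
Ankrd1: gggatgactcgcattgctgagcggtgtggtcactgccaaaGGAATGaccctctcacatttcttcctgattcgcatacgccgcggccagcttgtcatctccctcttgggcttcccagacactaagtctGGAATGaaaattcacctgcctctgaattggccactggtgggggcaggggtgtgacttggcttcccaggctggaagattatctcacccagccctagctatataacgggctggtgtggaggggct
Ccn1: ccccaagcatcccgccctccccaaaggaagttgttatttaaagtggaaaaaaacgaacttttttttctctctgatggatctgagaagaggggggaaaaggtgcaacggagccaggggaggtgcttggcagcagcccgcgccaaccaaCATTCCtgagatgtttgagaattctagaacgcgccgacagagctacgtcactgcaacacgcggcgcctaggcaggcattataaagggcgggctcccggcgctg
Of the 9 matrix genes higher in EV, 7 had a promoter in the table and 3 of these held TGANTCA. Of the 6 receptor tyrosine kinase genes, ligands and feedback genes higher in EV, 3 had a promoter, Areg among them, and 0 held it. In that list 3 of 17 tested members with a promoter held it: Met and Igf1, not called, and Ddr1, called lower. The motif was present in 434 of 8158 tested genes with a promoter (5.32%), in 52 of 575 called higher (9.04%), in 37 of 657 called lower (5.63%), in 14 of 71 at least 2-fold higher (19.7%) and in 12 of 135 at least 2-fold lower (8.89%). Over all 27025 genes in the promoter table its share was 7.82%. GGAATG was found in 3 of 5 called YAP and TEAD targets with a promoter and in 7 of 14 tested ones, beside 1001 of 8158 tested genes (12.3%). It was in 73 of 575 genes called higher (12.7%) and in 95 of 657 called lower (14.5%). At 2-fold or more it was in 12 of 71 higher genes (16.9%) and 24 of 135 lower ones (17.8%). A gene with several starts counts when any of them holds the motif. No test was run on these shares. Of the immediate early genes, 0 of 15 with a promoter held either motif, which says only that these letters are not in this window.

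**Figure D2:**
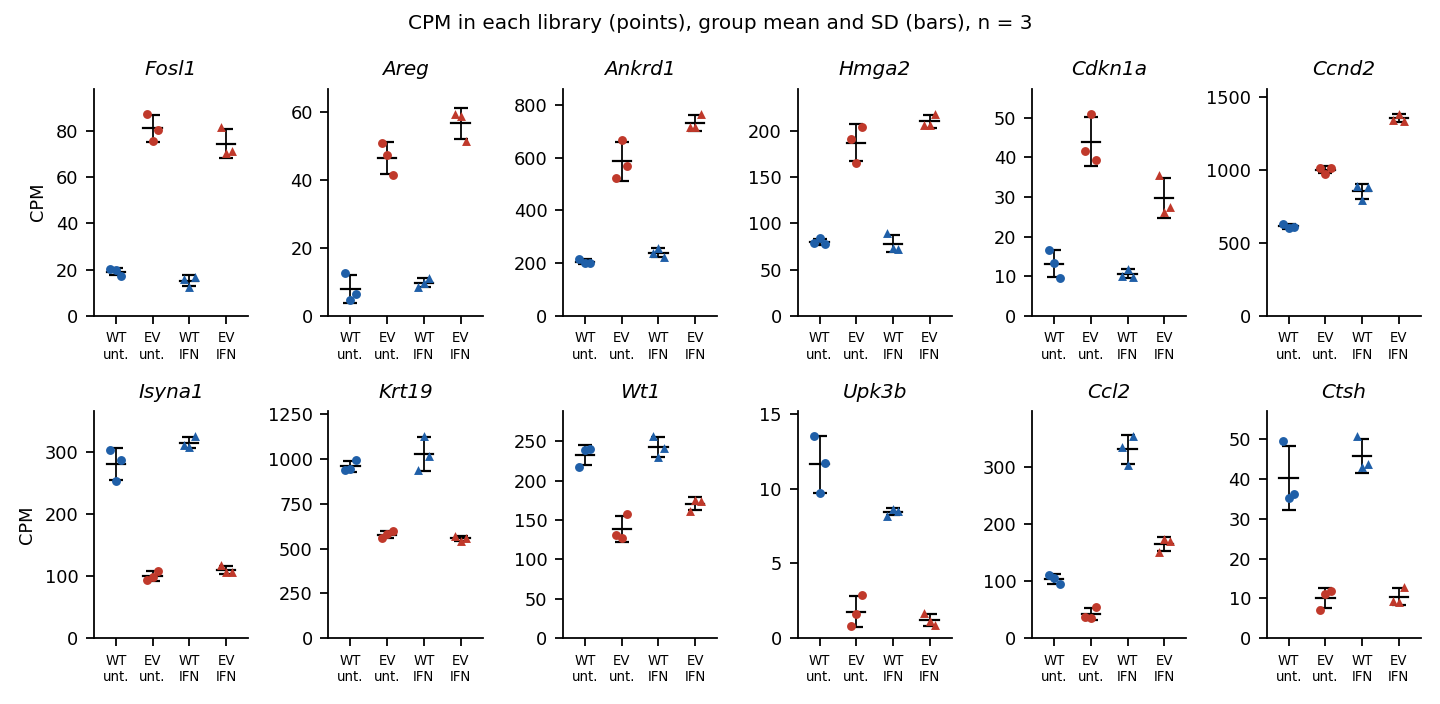
CPM of 12 genes in each library, with circles for untreated and triangles for IFN beta treated cells, WT in blue and EV in red. Horizontal bars are the group mean and vertical bars the SD of 3 libraries, on axes that start at 0. The upper genes were higher in all 3 untreated EV libraries than in any WT library and the lower genes were lower, and the order of the group means was the same after IFN beta.

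Some cell cycle genes were higher in EV, by small amounts. Of 27 tested genes of DNA replication and the G1/S transition, 12 were higher and 0 lower, with a median of 0.25, and of 27 G2/M and mitotic genes, 7 were higher and 1 lower, with a median of 0.21. Ccnd2, a D-type cyclin, was at 1015, 975 and 1019 CPM in EV and 634, 599.8 and 612 CPM in WT. The spread within each line was small, and the difference was 0.70 ± 0.07 (edgeR adjusted p = 1.74e-09). Ccnd1, the other D-type cyclin called, was at 616, 588 and 577 CPM in EV and 466, 454 and 398 CPM in WT, a difference of 0.44 ± 0.07 (edgeR adjusted p = 9.04e-06). Hells, a chromatin remodeller of dividing cells, differed by 0.34 and the replication helicase genes Mcm5 and Mcm7 by 0.28 and 0.28, all 3 named after their values were seen. Pcna and Mcm6 were not called, at -0.01 ± 0.07 and 0.08 ± 0.07. Kif20a, a mitotic kinesin, was higher by 0.48 ± 0.12 (edgeR adjusted p = 0.00272), and Ccnb2, a mitotic cyclin, lower, at -0.40 ± 0.10 (edgeR adjusted p = 0.00325), a call lost without WT replicate 2. The G1/S count was 5 without WT replicate 3, and the G2/M count was 4 without EV replicate 1, EV replicate 3 or WT replicate 1.

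An inhibitor of the cell cycle was higher as well. Cdkn1a, which codes for the p21 inhibitor of cyclin-dependent kinases and is a target of p53, was at 41.6, 51.0 and 39.3 CPM in EV and 16.7, 13.2 and 9.66 CPM in WT. The groups were well apart, at 1.76 ± 0.18 (edgeR adjusted p = 3.13e-11), and Cdkn1a was the sole call among 7 tested inhibitors. Plk2, another gene that p53 can induce, was at 179.9, 151 and 185 CPM in EV and 65.3, 64.7 and 67.9 CPM in WT, a difference of 1.38 ± 0.16 (edgeR adjusted p = 2.89e-06). Of the other 21 tested p53 targets, 3 were lower and 18 were not called, among them Mdm2 at 0.23 ± 0.16, Bax at 0.08 ± 0.10 and Perp at -0.01 ± 0.08. The 3 lower ones were Ccng1, Sesn1 and Ddit4, a count that was 0 without WT replicate 2. Among 32 tested genes of homologous recombination and the Fanconi pathway, 4 were higher, Brca2, Atr, Fancm and Fancc, and 0 lower, with a median of 0.23. Over all tested genes 6.96% were called higher and 7.14% lower. Without EV replicate 1 or WT replicate 1 the higher count of the list was 1, and 2 without WT replicate 3.

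Markers of the mesothelial surface layer were lower in EV in 5 of 11 tested members and higher in 2. Krt19, a simple-epithelial keratin, was at 557, 582 and 599 CPM in EV and 939.6, 943 and 996 CPM in WT. The ranges of the lines were narrow and apart, at -0.73 ± 0.06 (edgeR adjusted p = 3.2e-14). Wt1, a zinc finger factor of mesothelium, was at 131, 127 and 158 CPM in EV and 217, 239.5 and 239.7 CPM in WT, a difference of -0.74 ± 0.08 (edgeR adjusted p = 1.38e-10). Upk3b, a uroplakin of mesothelial cells, was at 0.799, 1.65 and 2.86 CPM in EV and 13.5, 9.68 and 11.7 CPM in WT, a difference of -2.70 ± 0.38 (edgeR adjusted p = 1.41e-07). Gata6, a zinc finger factor, was at 20.8, 23.03 and 25.4 CPM in EV and 38.3, 41.8 and 46.9 CPM in WT, a difference of -0.89 ± 0.15 (edgeR adjusted p = 1.47e-05), and Gata4 was lower as well, at -0.85 ± 0.24 (edgeR adjusted p = 0.00926), a call lost without EV replicate 3 or WT replicate 2. Of the others, Msln, for mesothelin, was not called at 325, 308 and 354 CPM in EV and 374, 339 and 358 CPM in WT (edgeR adjusted p = 0.32), nor were Krt8, Upk1b and Tjp1, at log2 differences of -0.11, -0.14 and -0.00. Krt18 was slightly higher, at 0.21 ± 0.06 (edgeR adjusted p = 0.0163). Cdh2, for N-cadherin, was higher by 0.41 ± 0.09 (edgeR adjusted p = 0.000355). Snai2, a repressor of epithelial genes that is not in this list, was also higher, at 49.2, 57.2 and 48.3 CPM in EV and 30.2, 33.6 and 30.003 CPM in WT and 0.73 ± 0.13 (edgeR adjusted p = 3.67e-05). The median of the list was -0.14, the lower count was 4 or 5 with any 1 library left out, and the higher count was 1 without EV replicate 1 or WT replicate 3.

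Among signalling ligands of development, Wnt6 was at 59.96, 67.0 and 68.7 CPM in EV and 154, 155 and 153 CPM in WT, with little spread within a line and a difference of -1.24 ± 0.10 (edgeR adjusted p = 7.59e-15). Wnt4 was at 2.40, 2.06 and 4.91 CPM in EV and 11.3, 9.17 and 9.31 CPM in WT, a difference of -1.65 ± 0.35 (edgeR adjusted p = 0.000296). Wnt10a, the most abundant Wnt measured, was at 367, 382 and 407 CPM in EV and 386, 403 and 368 CPM in WT and was not called (0.00 ± 0.07). Of 12 tested Wnt pathway genes 2 were lower and 1, Wnt7b, higher, a call lost without EV replicate 1 or WT replicate 1. In the TGF-beta and BMP list of 21 tested genes, 5 were higher and 5 lower. Inhba, a subunit of activin, was at 69.6, 56.3 and 77.3 CPM in EV and 32.9, 25.5 and 24.8 CPM in WT, a difference of 1.29 ± 0.14 (edgeR adjusted p = 1.1e-10). Smad7, an inhibitor of TGF-beta signalling, was at 31.2, 35.8 and 41.3 CPM in EV and 14.4, 14.3 and 20.002 CPM in WT, a difference of 1.12 ± 0.18 (edgeR adjusted p = 2.77e-06). Tgfb3, a ligand named after its value was seen, was at 25.6, 25.5 and 22.9 CPM in EV and 53.6, 43.8 and 46.9 CPM in WT, a difference of -0.96 ± 0.14 (edgeR adjusted p = 4.7e-07). The count of lower members was 1 without EV replicate 3.

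Matrix genes changed in both directions, with 7 higher and 8 lower of 25 tested and a median near 0. Sparc, an abundant matrix glycoprotein named after its value was seen, was at 753, 771 and 719 CPM in EV and 1081, 1089.6 and 1096 CPM in WT, a difference of -0.54 ± 0.06 (edgeR adjusted p = 4.42e-11). Lox, the enzyme that crosslinks collagen, was at 5.60, 10.3 and 8.59 CPM in EV and 27.0, 23.95 and 22.8 CPM in WT, a difference of -1.58 ± 0.21 (edgeR adjusted p = 4.8e-08). Mgp, matrix Gla protein, was at 0, 1.23 and 1.64 CPM in EV and 10.4, 10.7 and 16.6 CPM in WT, a difference of -3.70 ± 0.45 (edgeR adjusted p = 4.7e-09) that was -4.30 without EV replicate 3. Dcn and Col1a1, for decorin and a collagen I chain, were lower, at -1.36 ± 0.26 and -0.94 ± 0.14 (edgeR adjusted p = 5.56e-05 and 2.39e-06). These 2 are the tested members of the fibroblast list, of which 7 of 10 markers had a row. These summed to 319 UMIs in EV and 608 in WT, Pdgfra, Pdgfrb and Thy1 were at 0 in both lines, and the part of such cells in the matrix result was not tested. Col5a1, a collagen V chain, went the other way, at 14.8, 6.58 and 4.4997 CPM in EV and 0.9, 0.51 and 0.345 CPM in WT and 3.83 ± 0.56 (edgeR adjusted p = 5.13e-07), or 3.19 without EV replicate 1. Fn1 and Fbln2, for fibronectin and fibulin, were higher by 0.66 and 0.50. The count of lower matrix genes was 8 whichever library was left out. The higher count was 5 without EV replicate 1, EV replicate 3 or WT replicate 2, and 5 without both WT replicate 2 and EV replicate 3. In bulk RNA, fewer cells of a kind and less RNA per cell cannot be told apart.

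Adhesion genes divided in the same way, with 4 higher and 4 lower of 17, and 2 higher without WT replicate 3. Cd44, the hyaluronan receptor, was at 227, 197 and 218 CPM in EV and 116, 104 and 109 CPM in WT, all EV libraries above all WT libraries, at 0.96 ± 0.09 (edgeR adjusted p = 8.65e-12). Itgb3, an integrin chain, was at 12.8, 11.1 and 10.2 CPM in EV and 25.7, 24.5 and 29.0 CPM in WT, a difference of -1.22 ± 0.20 (edgeR adjusted p = 3.72e-06). The tetraspanin gene Cd9 was at 327, 305 and 304 CPM in EV and 422, 430.1 and 435 CPM in WT, a difference of -0.46 ± 0.06 (edgeR adjusted p = 1.31e-07).

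Stress pathways parted from each other. Of 19 tested genes of the integrated stress response, which couples amino acid shortage to the factor Atf4, 8 were higher and 2 lower, with a median of 0.34. Chac1, a glutathione-degrading enzyme, was at 29.98, 30.02 and 26.2 CPM in EV and 9.45, 13.8 and 7.93 CPM in WT, a difference of 1.51 ± 0.20 (edgeR adjusted p = 5.2e-08), and Atf4 was higher by 0.42 ± 0.09 (edgeR adjusted p = 0.000209). The serine and folate enzymes Shmt2 and Mthfd2 were higher by 0.44 and 0.43, both named after their values were seen. Nupr1, a stress-inducible chromatin protein, was at 249, 256 and 294 CPM in EV and 507, 478 and 519 CPM in WT, a difference of -0.91 ± 0.12 (edgeR adjusted p = 3.28e-05). The count of higher members was 4 without WT replicate 3, and the lower count 1 without EV replicate 2, EV replicate 3, WT replicate 1 or WT replicate 2. Of 21 tested genes of the unfolded protein response in the endoplasmic reticulum, 7 were lower and 1, Atf4, higher, with a median of -0.19. Xbp1, its transcription factor, was at 90.7, 79.4 and 81.0 CPM in EV and 137, 117 and 111 CPM in WT, a difference of -0.53 ± 0.09 (edgeR adjusted p = 1.72e-05), and Dnajc3, a chaperone partner, was at 121, 118 and 125 CPM in EV and 174, 162 and 159 CPM in WT, a difference of -0.44 ± 0.09 (edgeR adjusted p = 0.000139). Hspa5, the main chaperone of the compartment, was not called, at -0.13 ± 0.13, nor was Ddit3, at 0.08 ± 0.20. Without EV replicate 2, WT replicate 1 or WT replicate 2 the lower count was 4.

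Cytosolic and mitochondrial chaperones were higher in 4 of 12 tested heat shock genes and lower in 0. Hsp90aa1 was at 889.8, 888 and 845 CPM in EV and 719.9, 644 and 600.4 CPM in WT, a difference of 0.42 ± 0.06 (edgeR adjusted p = 9.28e-07), and the mitochondrial chaperonin gene Hspd1 differed by 0.43 ± 0.08 (edgeR adjusted p = 0.000258). The higher count was 3 without WT replicate 3, and the list median was 0.19 untreated and -0.05 after IFN beta. Hspa9, the mitochondrial Hsp70, is not counted in this list. It was at 593, 577 and 588 CPM in EV and 346, 368 and 312 CPM in WT, a difference of 0.78 ± 0.06 (edgeR adjusted p = 9.36e-15). Lysosome and autophagy genes were lower in 5 of 24 tested and higher in 0, with 1 higher at an unadjusted p below 0.05, and a median of -0.19. Ctsh, a cathepsin, was at 7.20, 11.1 and 11.9 CPM in EV and 49.5, 35.2 and 36.2 CPM in WT, a difference of -1.997 ± 0.19 (edgeR adjusted p = 1.53e-12). The autophagy receptor Sqstm1 was at 195, 197 and 216 CPM in EV and 294, 292 and 273 CPM in WT, a difference of -0.50 ± 0.08 (edgeR adjusted p = 1.34e-06). Gabarapl1 and Map1lc3b, which decorate autophagosomes, were lower, at -0.64 ± 0.11 and -0.37 ± 0.07 (edgeR adjusted p = 1.64e-05 and 3.66e-05).

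Metabolic lists moved less evenly. Of 22 tested oxidative stress genes, many of them NRF2 targets, 6 were lower and 1 higher. Gsta4, a glutathione transferase, was at 131, 141 and 133 CPM in EV and 270.1, 250.2 and 388 CPM in WT, a difference of -1.18 ± 0.14 (edgeR adjusted p = 4.03e-06), and Me1, malic enzyme, was at 157, 143 and 162 CPM in EV and 233, 244 and 238 CPM in WT, a difference of -0.63 ± 0.08 (edgeR adjusted p = 1.08e-08). Osgin1 was the higher member, at 135, 107 and 114 CPM in EV and 70.7, 61.7 and 63.1 CPM in WT and 0.86 ± 0.11 (edgeR adjusted p = 2.14e-08). Hmgcs1, an early enzyme of cholesterol synthesis, was at 178, 150.1 and 191 CPM in EV and 263, 317 and 293 CPM in WT, a difference of -0.75 ± 0.11 (edgeR adjusted p = 2.05e-05), in a list with 5 lower and 2 higher of 24, a lower count that was 3 without EV replicate 1, EV replicate 3, WT replicate 2 or WT replicate 3, and a higher count that was 1 without EV replicate 1, EV replicate 2 or EV replicate 3. Isyna1, which makes inositol phosphate from a glucose phosphate, had the smallest adjusted p of all tested genes. It stood at 93.9, 97.9 and 109 CPM in EV and 303, 253 and 286 CPM in WT, a difference of -1.49 ± 0.09 (edgeR adjusted p = 8.22e-21). Of 24 tested hypoxia and glycolysis genes 2 were higher and 5 lower, with a median of 0.01, beside 6.96% and 7.14% of all tested genes. The higher ones were Ndrg1, which low oxygen induces, at 0.79 ± 0.12 and Hk2, a hexokinase, at 0.47 ± 0.10 (edgeR adjusted p = 7.17e-07 and 0.000761). Egln3 and P4ha2, an oxygen-dependent prolyl hydroxylase of hypoxia signalling and a collagen prolyl hydroxylase, were lower at -1.75 ± 0.28 and -2.31 ± 0.45 (edgeR adjusted p = 2.55e-06 and 9.09e-05). The glycolytic genes Aldoc, Gapdh and Tpi1 were the other lower members, at -0.84, -0.23 and -0.21. The lower count was 2 without EV replicate 3 or WT replicate 3, 3 without EV replicate 1 or WT replicate 1, and 3 in DESeq2. Ndrg1, Hk2, Aldoc, Gapdh and Tpi1 were named after their values were seen. Of 49 ribosomal protein genes 3 were higher (1 without EV replicate 2) and 1 lower (0 without EV replicate 1, EV replicate 3 or WT replicate 3). Over all tested genes these shares were 6.96% and 7.14%. Of 13 mitochondrial genome mRNAs 0 were called by edgeR, DESeq2 or limma-voom, and 4 were lower at an unadjusted p below 0.05. In edgeR 3 of them were called lower without WT replicate 2, 1 without EV replicate 2 and 2 with no filter on low counts.

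**Figure D3:**
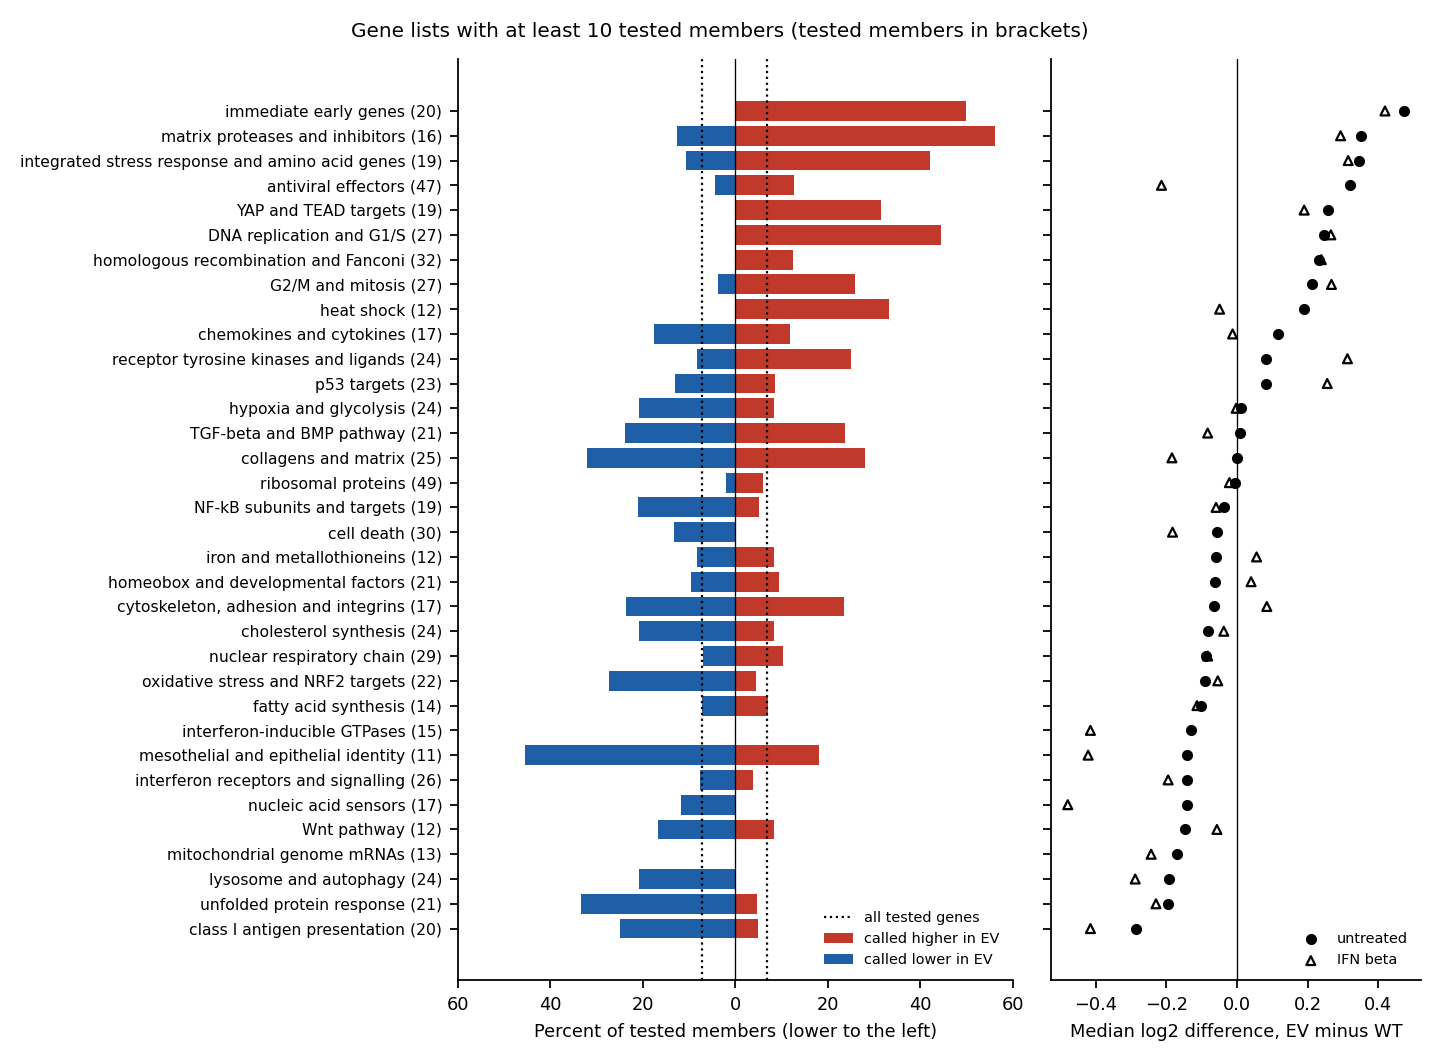
Gene lists with at least 10 tested members, ordered by their median log2 difference in untreated cells. Bars give the percent of tested members called higher (red, right) or lower (blue, left) in untreated EV, dotted lines the 6.96% and 7.14% of all tested genes, and the right panel the median log2 difference untreated (dots) and after IFN beta (triangles), with immediate early genes at the top at 0.47 and class I antigen presentation at the bottom at -0.29.

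Leaving out WT replicate 2 and EV replicate 3 together moved some counts of called list members by over 1.5 times. The lower members were then 1 in the TGF-beta and BMP list, 2 in cholesterol synthesis, 2 in hypoxia and glycolysis, 4 in the unfolded protein response, 3 among mitochondrial genome mRNAs and 0 among p53 targets. Then 1 lower member each was left in the integrated stress response, the matrix proteases, the nucleic acid sensors and the interferon receptor and signalling list, and 0 in the G2/M, ribosomal protein and nuclear respiratory chain lists. The higher members were 4 in the G2/M list, 2 among adhesion genes and 1 each in the mesothelial, cholesterol, and chemokine and cytokine lists. Class I antigen presentation had 4 lower and 1 higher.

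Interferon-related genes were called in both directions in untreated cells. Of 47 tested antiviral effectors 6 were higher and 2 lower in EV, with a median of 0.32, where 6.96% and 7.14% of all tested genes were called. The largest belonged to oligoadenylate synthetases, sensors of double-stranded RNA. Oas1g was at 17.6, 17.7 and 23.7 CPM in EV and 0.9, 5.10 and 0.69 CPM in WT, a difference of 3.28 ± 0.48 (edgeR adjusted p = 2.88e-05) that was 4.58 without WT replicate 2. Oas1a stood at 11.6, 10.3 and 18.8 CPM in EV and 0.9, 6.63 and 1.38 CPM in WT, a difference of 2.31 ± 0.44 (edgeR adjusted p = 0.000311) that was 3.49 without WT replicate 2. These are near-identical paralogs whose reads the counting could split, so each is uncertain on its own. Isg20, Ifi27, Lgals3bp and Xaf1 were the other higher members, at 0.43, 0.32, 0.46 and 0.65. Apobec3, a cytidine deaminase that restricts retroviruses, was lower, at 12.0, 10.7 and 11.5 CPM in EV and 19.8, 25.5 and 22.4 CPM in WT and -0.98 ± 0.20 (edgeR adjusted p = 0.000192). Common interferon genes were not called: Isg15 at 0.25 ± 0.47, Ifit1 at 0.34 ± 0.48 and Irf7 at 0.41 ± 0.43. The higher count was 11 without WT replicate 2, 3 without EV replicate 3, WT replicate 1 or WT replicate 3, and 8 without both WT replicate 2 and EV replicate 3. The lower count was 1 without EV replicate 1, EV replicate 2 or WT replicate 3. In the untreated Ifnar1 knockout clones the summed antiviral level was 612 to 655 CPM in 1CF10 and 548 to 573 CPM in 2CD7, below every EV and WT library.

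**Figure D4:**
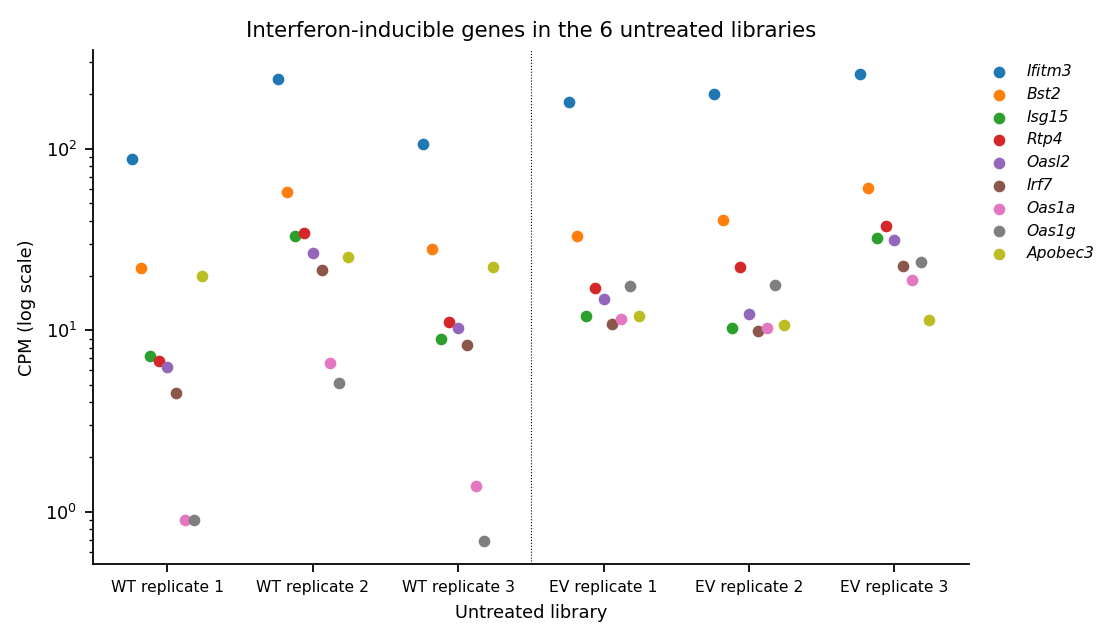
CPM of 9 interferon-related genes on a log scale in each of the 6 untreated libraries, with replicates in no order and points of a library spread sideways for legibility. Isg15, Rtp4, Oasl2 and Irf7 were high in WT replicate 2 and EV replicate 3, where Isg15 reached 33.1 and 32.3 CPM. Oas1a and Oas1g were higher in every EV library than in any WT library.

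Interferon-inducible GTPases gave 0 calls in 15 tested genes by edgeR, DESeq2 and limma-voom, and 1 of them was lower at an unadjusted p below 0.05. Without WT replicate 1 alone, edgeR called 1 member lower. Of 26 interferon receptor and signalling genes 1 was higher and 2 were lower, the latter 1 without EV replicate 2, EV replicate 3, WT replicate 1 or WT replicate 3. Of 17 tested nucleic acid sensors 2 were lower, and 1 without EV replicate 2 or WT replicate 2. Stat3, which carries signals of interleukin 6 family cytokines, was at 44.8, 36.6 and 45.0 CPM in EV and 75.2, 87.1 and 69.0 CPM in WT, a difference of -0.86 ± 0.12 (edgeR adjusted p = 1.16e-07). Ptpn2, a phosphatase that dampens this signalling, was higher by 0.50 ± 0.11 (edgeR adjusted p = 0.00047). Class I antigen presentation had the lowest median of the lists with at least 10 tested members, -0.29, with 5 lower and 1 higher of 20. Psme1, a proteasome activator subunit, was at 124, 131 and 154 CPM in EV and 189, 235 and 191 CPM in WT, a difference of -0.58 ± 0.08 (edgeR adjusted p = 1.33e-07). Its partner subunit Psme2 was at 149, 153 and 159.5 CPM in EV and 187, 244 and 198 CPM in WT, a difference of -0.44 ± 0.08 (edgeR adjusted p = 5.56e-05). Of the class I chains, H2-K1 was not called at -0.37 ± 0.15 and H2-D1 not at 0.03 ± 0.09, and B2m, their light chain, was higher by 0.22 ± 0.07 (edgeR adjusted p = 0.0197), a call lost without EV replicate 3, WT replicate 1 or WT replicate 3. The count of lower members was 3 without EV replicate 2 or WT replicate 2. Class I chain genes are close paralogs whose reads the counting could split, so their single values are uncertain.

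Secreted immune signals differed gene by gene. Ccl2, a chemokine for monocytes, was at 38.0, 35.4 and 54.4 CPM in EV and 111, 105 and 94.5 CPM in WT, with no overlap and a difference of -1.28 ± 0.11 (edgeR adjusted p = 8.07e-14). Its neighbour in the genome and relative Ccl7 was at 2.80, 9.87 and 4.91 CPM in EV and 15.8, 13.8 and 15.9 CPM in WT, a difference of -1.38 ± 0.30 (edgeR adjusted p = 0.000604) that was -1.96 without EV replicate 2. Cxcl12 was higher, at 207, 203 and 187 CPM in EV and 145, 129.95 and 164 CPM in WT and 0.44 ± 0.08 (edgeR adjusted p = 7.24e-05). Il24, an interleukin 10 family cytokine, was at 7.59, 6.58 and 5.32 CPM in EV and 0.9, 1.02 and 0.69 CPM in WT, a difference of 2.87 ± 0.50 (edgeR adjusted p = 1.61e-05). Of 17 tested chemokines and cytokines 2 were higher and 3 lower, the former 1 without EV replicate 1 or WT replicate 3. Il2rg, the shared chain of several interleukin receptors, was at 16.4, 17.7 and 16.8 CPM in EV and 1.80, 3.57 and 1.72 CPM in WT, a difference of 2.88 ± 0.33 (edgeR adjusted p = 7.66e-10). Havcr2, for the receptor TIM-3, was at 4.397, 6.99 and 6.95 CPM in EV and 0.45, 1.02 and 0.345 CPM in WT, a difference of 3.32 ± 0.57 (edgeR adjusted p = 1.22e-05). Both receptors are best known from leukocytes, whose part in these results was not tested. Of 15 leukocyte markers 7 had a row, with 155 UMIs in EV and 125 in WT, of which Cd14 held 137 and 110, and Csf1r and Cd74 were at 0 in both. Endothelial markers, 6 of 10 with a row, summed to 75 and 78 UMIs with Emcn at 0 in both, and the sole adipocyte marker with a row, Fabp4, had 36 and 22.

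Some genes were present in WT and nearly absent from EV. Xist, the long noncoding RNA that coats the inactive X chromosome, had 75 UMIs in WT (9.90, 7.64 and 13.1 CPM) and 0 in EV. Taking 3 UMIs in the EV group as the floor, it was at least 26.0-fold lower. In the untreated clones Xist was at 0.236 ± 0.41 CPM (SD, n = 3) in 1CF10 and 0 in every 2CD7 library. Tmem184a and Sema5a were the other called genes with 0 UMIs in EV, at least 9.72-fold and 8.33-fold lower against the same floor, from 28 and 24 UMIs in WT. Kctd14 was at 0.799, 1.23 and 1.64 CPM in EV and 27.9, 26.0 and 38.3 CPM in WT, a difference of -4.63 ± 0.35 (edgeR adjusted p = 5.56e-16). Arhgdib was at 0.799, 2.47 and 2.86 CPM in EV and 31.1, 26.0 and 34.1 CPM in WT, a difference of -3.89 ± 0.29 (edgeR adjusted p = 1.72e-16). With 1 to 3 UMIs left in EV, Rgs4, Raet1e, Rab38, Cbfa2t3, Glipr2 and Flrt1 had WT to EV ratios of 22.9 (95% 3.70 to 946), 21.4 (95% 5.55 to 182), 19.8 (95% 3.15 to 822), 15.97 (95% 5.13 to 80.3), 13.5 (95% 2.03 to 575) and 12.0 (95% 2.96 to 105), with exact intervals for counting error. The call of Glipr2 was lost without EV replicate 1. Fkbp11, Wfdc1 and Defb48 were also among the 15 lowest, at -3.85, -3.77 and -3.73, and Fkbp11 was at -7.45 without EV replicate 3 and Wfdc1 at -4.99 without EV replicate 2. No called gene had 0 UMIs in WT.

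In the other direction, Ahrr, the repressor of the aryl hydrocarbon receptor, was at 18.4, 18.1 and 13.1 CPM in EV and 1.80, 1.02 and 2.41 CPM in WT, a difference of 3.14 ± 0.36 (edgeR adjusted p = 4.57e-10). Slc14a1, a urea transporter, was at 23.98, 27.1 and 22.5 CPM in EV and 2.70, 3.57 and 3.79 CPM in WT, a difference of 2.84 ± 0.28 (edgeR adjusted p = 6.7e-12). Myh15, Macc1 and Otub2 were higher at 3.59 ± 0.56, 2.22 ± 0.52 and 2.21 ± 0.53, with Macc1 at 2.85 without WT replicate 3. Igsf11 and Ifi27l2b had 1 to 3 UMIs in WT and EV to WT ratios of 26.9 (95% 4.44 to 1099) and 13.4 (95% 3.39 to 116), and Ifi27l2b has close paralogs. Of the genes of high abundance, Sprr1a, a cornified envelope protein, was at 231, 223 and 232 CPM in EV and 102, 90.7 and 101 CPM in WT, a difference of 1.22 ± 0.09 (edgeR adjusted p = 2.34e-17). Hmga2, an architectural chromatin protein, was at 191, 165 and 205 CPM in EV and 78.3, 83.6 and 77.2 CPM in WT, a difference of 1.23 ± 0.10 (edgeR adjusted p = 8.22e-16). Hmga1b, whose reads may be shared with its near-identical parent Hmga1, differed by 0.85 ± 0.07 and Tubb6, a beta tubulin, by 0.87 ± 0.07. Smim1, a small membrane protein, was at 53.2, 50.6 and 58.1 CPM in EV and 116, 136 and 138 CPM in WT, a difference of -1.27 ± 0.10 (edgeR adjusted p = 2.39e-15).

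Levels in the untreated knockout clones placed some of these genes between the controls and others at the level of EV or WT. Fosl1 averaged 81.3 ± 6.0 CPM in EV, 19.1 ± 1.6 in WT, 86.1 ± 4.9 in 1CF10 and 43.4 ± 8.0 in 2CD7 (SD, n = 3 each). Ankrd1 averaged 586 ± 73.5, 206 ± 8.7, 851 ± 39.0 and 307 ± 41.3 CPM in the same order. For both genes 1CF10 was at or above EV and 2CD7 lay between the controls. Ccl2 averaged 42.6 ± 10.3, 104 ± 8.3, 116 ± 3.2 and 129 ± 3.2 CPM, so EV was the lowest of the 4 lines. Il2rg averaged 16.9 ± 0.67, 2.36 ± 1.0, 2.57 ± 0.58 and 0.628 ± 0.57 CPM, with EV the highest. Kctd14 averaged 1.22 ± 0.42, 30.7 ± 6.6, 0.883 ± 0.81 and 17.5 ± 2.6 CPM, with EV and 1CF10 both low. These are levels set side by side, without a test.

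By chromosome, genes with an average log2 CPM above 4 had a median log2 difference of 0.25 on chromosome 18, where 73.7% of 209 genes were higher in EV, and of -0.10 on chromosome 14, where 28.8% of 260 were. Chromosome 14 was the lowest and chromosome 12, at 0.08, the highest of the 19 nuclear chromosomes other than 18. Of 314 tested genes on chromosome 18, 27.1% were called higher and 2.23% lower. Hbegf, Smad7, Slc14a1, Hspa9, Tubb6, Kif20a, Ptpn2 and Atp5a1 lie there, as do Lox and Gata6, which were lower. On chromosome 14, 1.74% of 403 were called higher and 12.9% lower.

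The difference between the lines was measured again in IFN beta treated cells, in 6 other libraries. There 1135 genes (9.7%) were higher and 1106 (9.45%) lower in EV, 2241 in all (19.2%). Of the 1649 genes called in untreated cells, 1590 (96.4%) had the same sign after treatment, 1128 were called in the same direction (551 higher and 577 lower) and 0 in the opposite one. These 1128 genes are 68.4% of the untreated calls and 50.3% of the treated ones. Of the 293 untreated calls of at least 2-fold, 225 were called the same way. Fosl1 differed by 2.30 ± 0.15 after treatment, Areg by 2.53 ± 0.22, Ankrd1 by 1.61 ± 0.12, Isyna1 by -1.51 ± 0.08 and Krt19 by -0.89 ± 0.06, each close to its untreated value. Immediate early genes gave 12 higher and 0 lower of 20, and class I antigen presentation 1 higher and 13 lower of 20, with a median of -0.41. Antiviral effectors gave 5 higher and 10 lower of 47, with a median of -0.21 against 0.32 untreated. Of these genes, 2 were called higher and 1 lower in both comparisons. Interferon-inducible GTPases gave 9 lower of 15 and nucleic acid sensors 10 lower of 17. Changes of these list counts with treatment were not tested.

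**Figure D5:**
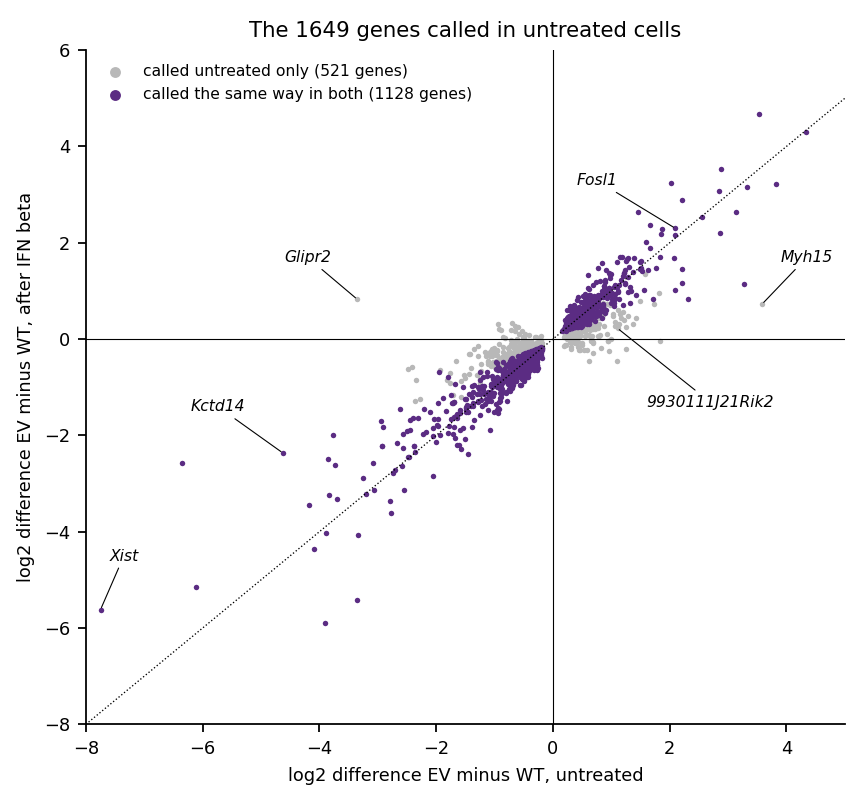
The 1649 genes called in untreated cells, with the untreated log2 difference (EV minus WT) on the horizontal axis and the difference after IFN beta on the vertical axis. Purple marks the 1128 called in the same direction in both and the dotted line equal values, and most points lie near that line, with exceptions such as Myh15 (3.59 untreated, 0.73 treated). Fitted values of genes with almost no UMIs in a group, such as Xist, depend on the fit and are no measure of fold.

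A test of the change in this difference with treatment called 5 genes (0.0427%), 3 higher and 2 lower, and 805 genes had an unadjusted p below 0.05. Rrm2, a subunit of ribonucleotide reductase, had a difference of -0.06 ± 0.09 untreated and 0.52 ± 0.09 after treatment. Atf3, Plau and Oas1a, with pairs of values further apart (1.22 and 0.41, 1.47 and 2.65, 2.31 and 0.84), were not among the 5. The count rested on the fit: DESeq2 called 0 higher and 1 lower, and a fit of the 4 groups alone 20 and 10.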

How the data were processed

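Gene expression was measured by 3′ RNA-seq with UMIs in 24 libraries of 4 ID8 lines, untreated or treated with IFN beta, 3 technical replicates per group. Per the labels, 20 ng of RNA was primed at the poly(A) tail, UMIs were 10 bases long and the gene read ran in the sense direction. The deposited table holds whole-number UMI counts per gene, not normalized, which the authors made on GRCm38 (mm10). Per the submitters' processing notes cutadapt 3.0, R 3.6.2 and 4.1.2, edgeR 3.36.0 and limma 3.50.0 were used. Neither the aligner nor the strand setting of the counting is given in the sources used here. Fosl1, Ccnd1, Kif20a, Psme1, Sqstm1, Map1lc3b, Stat3, Hspd1, Lox, Smim1, Flrt1 and Tmem184a overlap a tested gene on the other strand. So do others, among them Bad and Atp5a1.

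Here genes with enough counts (filterByExpr, minimum 10, total 15) were fitted over all 8 groups by edgeR 4.0.16's robust quasi-likelihood test in R 4.3.3 with TMM scaling. Each contrast was adjusted by Benjamini-Hochberg over the 11698 tested genes and called at 0.05. Values after ± are standard errors of log2 differences unless marked SD, and intervals and floors cover counting error only. The test was also tried on counts with known changes, simulated from the means and spread of these data. Identifiers were matched to GENCODE M21 (24577 of 24614).

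Named genes were the 15 called genes per direction with the largest log2 difference at an average log2 CPM of at least 1, leaving out predicted, Rik and pseudogene symbols, and the 5 with the smallest adjusted p at 6 or above. To these came up to 4 called members per list, genes called with 0 UMIs in a group, up to 3 per direction from the difference of differences, Ifnar1, Ifnar2, Trp53 and Brca2. Defining members that were not called are also given. The comparison, the lists and the rule were chosen with earlier results of these data known. The alternatives were RLE scaling, DESeq2 1.42.0, limma-voom (limma 3.58.1), other count filters, a replicate block, the compared groups alone, libraries thinned to the smallest, and each library left out. Some list members are not reported here.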

Additional observations from a re-analysis of the deposited data

Results flagged for a closer look

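In 5 genes the EV minus WT difference itself differed between treated and untreated cells, by edgeR's test of the difference of differences at an adjusted p below 0.05. The changes, treated minus untreated on the log2 scale, were -0.88 ± 0.18 for 9930111J21Rik2, -1.43 ± 0.26 for Gm6475, 0.55 ± 0.12 for Nrn1, 0.59 ± 0.12 for Rrm2 and 0.54 ± 0.11 for Ssr1. The edgeR adjusted p-values were 0.0299, 0.00743, 0.0473, 0.0473 and 0.0299 in the same order. In untreated cells only 9930111J21Rik2 was called, at 51.2, 40.3 and 40.9 CPM in EV and 20.3, 20.4 and 20.7 CPM in WT, and it overlaps Olfr56 on the other strand. Gm6475 is a predicted gene whose reads may be shared with a parent gene. Groups of 3 were not tested for single libraries standing apart.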

How the results depend on the processing

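Over 15 settings, 112 of 158 named called genes kept direction and call, 46 lost the call in at least 1 and 0 reversed. The untreated counts of 814 higher and 835 lower were 552 to 750 and 551 to 708 with a single library left out, the lowest without WT replicate 3, and 596 and 555 without WT replicate 2 and EV replicate 3. DESeq2 called 603 and 595, and libraries thinned to the smallest 730 and 705. Of the 1649 called genes, 1188 were still called in the same direction by DESeq2 and 1044 without WT replicate 3. Same-numbered libraries of EV and WT did not deviate together (correlations of 0.000413, -0.101 and 0.00258). With 3 libraries per group these values cannot settle whether a shared number marks a pairing, and the main fit used none. A replicate block gave 831 higher and 851 lower untreated. For the difference of differences, 3 higher and 2 lower, the block gave 8 and 6, no low-count filter 51 and 25, a minimum count of 30 gave 1 higher, the compared groups alone 20 and 10, DESeq2 0 and 1, limma-voom 0 and 1 and thinned libraries 0 and 0. With a single library left out these were 0 to 12 and 0 to 21. The cause was not tested. Leaving out 1 library moved the fitted value by over 1.5 times in Fkbp11 (-7.45) and Mgp (-4.30) without EV replicate 3, Ccl7 (-1.96) and Wfdc1 (-4.99) without EV replicate 2, Col5a1 (3.19) without EV replicate 1, Macc1 (2.85) without WT replicate 3, and Oas1a (3.49) and Oas1g (4.58) without WT replicate 2.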

Other observations

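Genes of cell death were lower or not called in the main fit, with 4 lower and 0 higher of 30 tested by edgeR, and 1 higher at an unadjusted p below 0.05. The higher count was 1 without EV replicate 1, without EV replicate 2, or with no filter on low counts. The lower count was 3 to 5 with a single library left out. Bmf, which promotes apoptosis by binding BCL2 proteins, was at 12.4, 7.81 and 10.2 CPM in EV and 18.5, 29.0 and 25.5 CPM in WT, a log2 difference of -1.25 ± 0.26 (edgeR adjusted p = 0.00062). Casp6, an effector caspase, was at 39.6, 39.1 and 31.9 CPM in EV and 66.6, 51.5 and 71.7 CPM in WT, a difference of -0.79 ± 0.14 (edgeR adjusted p = 2.77e-05). Bad, another BCL2 antagonist, differed by -0.42 ± 0.10 (edgeR adjusted p = 0.00162). Among NF-kB subunits and targets 4 were lower of 19, and 1, Tnfaip3, was higher, a call lost without EV replicate 1, EV replicate 2 or WT replicate 3. Icam1, a leukocyte adhesion receptor, was at 31.6, 27.1 and 24.5 CPM in EV and 39.6, 45.9 and 48.6 CPM in WT, a difference of -0.69 ± 0.14 (edgeR adjusted p = 0.000243), while the subunits Nfkb1 and Rela were not called, at -0.00 ± 0.16 and 0.11 ± 0.10.

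Ligands of immune checkpoint receptors also differed one by one. Cd276, for B7-H3, was at 41.2, 38.2 and 35.2 CPM in EV and 26.6, 27.0 and 25.2 CPM in WT, a difference of 0.55 ± 0.15 (edgeR adjusted p = 0.00673). Nectin2 was at 71.2, 75.3 and 79.4 CPM in EV and 114, 119 and 101 CPM in WT, a difference of -0.56 ± 0.09 (edgeR adjusted p = 6.49e-06). Cd274, for PD-L1, was not called, at -0.33 ± 0.55. Nuclear genes of the respiratory chain were called higher in 3 and lower in 2 of 29, where 6.96% and 7.14% of all tested genes were called. The lower count was 1 with any 1 library left out. Atp5a1, for an ATP synthase subunit, lies on chromosome 18. It was at 618, 584 and 624 CPM in EV and 468, 429.6 and 466 CPM in WT, a difference of 0.42 ± 0.06 (edgeR adjusted p = 4.36e-07). Cycs, for cytochrome c, was at 581, 607 and 601 CPM in EV and 466, 467 and 454 CPM in WT, a difference of 0.37 ± 0.06 (edgeR adjusted p = 6.74e-06).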
